A study of Vitis vinifera with 4 samples.

Results

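The regions described here are the NAC61 binding events on grapevine chromosome 16. They are all events that the deposited list places on that chromosome, 293 of 8558 in the list, and the choice used the position only. The events come from DNA affinity purification sequencing (DAP-seq), which recovers the fragments of naked genomic DNA that a tagged protein holds. NAC61 with a HALO tag (HALO-NAC61, 2 replicates) was compared with GST-HALO, a tagged protein that is no transcription factor (labelled pIX-HALO, 2 replicates). Every protein was made in rabbit reticulocyte lysate, and all 4 libraries used DNA from pooled young leaves of fruiting cuttings of cv. 'Syrah'. The DNA was thus free of chromatin proteins, and the level of NAC61 in the plant had no part in the measurement. Only leaf DNA was used, so tissues and ripening stages were not compared. The peak caller GEM combined the replicates into 1 list, which holds no value per replicate and none for the control, so the spread between replicates is unknown and all comparisons are among events. Each event has a summit, given as GEM names it on the PN40024 12X.v2 assembly, an interval of 201 bp, a signal (taken here as the number of HALO-NAC61 reads given to the event by GEM, a unit the study's text does not state) and a q-value against the control, reported here as its −log10 and called significance.

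NAC proteins are plant transcription factors that bind DNA through a conserved domain at their N-terminus, often at sites with a CGTG or CACG core, and many of them act in senescence, ripening and stress. Chromosome 16 carries the large tandem array of stilbene synthase (STS) genes. These enzymes build resveratrol from a phenylpropanoid precursor and malonyl-CoA, and resveratrol and its derivatives are the stilbenoids that grapevine forms under pathogen attack and in drying berries.

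The k-mers, short sequences that GEM learned from the events of the list and assigned to single events, show the sequence at single events of the chromosome. The study's table of bound genes gives genes and k-mers for 51 of the 293 events (17.4%) in the copy used here, which is sorted by gene annotation and ends early in the alphabet. A k-mer is given for 23 of the 51 events (45.1%, 95% Wilson interval from 32.3% to 58.6%), against 718 of 1806 listed events of the 18 other anchored chromosomes (39.8%, from 37.5% to 42.0%). The following k-mers are shown because they stand at the genes described below. Capitals mark a match on either strand to one of the 8 words of the 7-base motif that the study derived from the strongest events, which begins with CACG or CAAG, goes on with C or T and ends in AA or CA. A k-mer without capitals holds no complete match, where an undetermined base, printed as n, was not counted as matching.
SAUR29, upstream event: gTTGCGTGt
IQD21, upstream event: gcTTGCGTGt
1-aminocyclopropane-1-carboxylate synthase: gaTTGCGTGt
Aquaporin BETA-TIP: cTTGCGTGt
Acid phosphatase, event inside the gene: TGGCGTGt
ABA receptor PYL8: TGACGTGt
Carbohydrate kinase, farther event: aTTGCTTGt
ABC transporter TAP3, upstream event: tgcgtgt
Ankyrin repeat protein: tgncgtgt
SAUR29, event past the gene end: tagcgtgt

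The 23 k-mers are of 17 kinds, and 21 of the 23 hold CGTG or its reverse complement CACG. The complete motif is in 18 of the 23 (78.3%, 95% Wilson interval from 58.1% to 90.3%), against 490 of 718 (68.2%, from 64.8% to 71.5%) on the other anchored chromosomes, so the intervals overlap. The word CACGCAA accounts for 9 of the 18 events, CACGTCA for 5, CACGCCA for 3 and CAAGCAA for 1. The k-mer TGACGTGt occurs at 3 events on the chromosome and at 37 listed events of the other anchored chromosomes, and no other k-mer occurs at more than 2 events on chromosome 16. Since motif and k-mers were both learned from events of this list, their match is no independent measure of binding. Events with a k-mer had a median signal of 79 reads and a median significance of 4.72 (n = 23), against 80.0 reads and 7.50 for those without (n = 28). A k-mer thus did not go with a higher signal here, and the event of lowest signal with one had 45 reads.

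Binding events were sparse on chromosome 16. Between the first summit, at 102940, and the last, at 23489697, lay 23.4 Mb with 12.5 events per Mb (95% exact Poisson interval from 11.1 to 14.0), against 18.7 events per Mb (from 18.3 to 19.1) over the 432.8 Mb of the 18 other anchored chromosomes. This was the lowest of the 19 densities. Chromosomes 9, 12, 15 and 19 followed with 13.6 to 14.0 events per Mb, and the intervals of these 4 overlapped that of chromosome 16, whereas those of the 14 denser chromosomes did not. The chromosome thus held 3.49% of the anchored events on 5.13% of the anchored span. With a minimum −log10 q-value of 5, chromosome 15 was lowest (7.66 events per Mb) and chromosome 16 next (8.34). Chromosome lengths were not used here, and the intervals cover counting error only and treat events as independent.

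**Figure D1:**
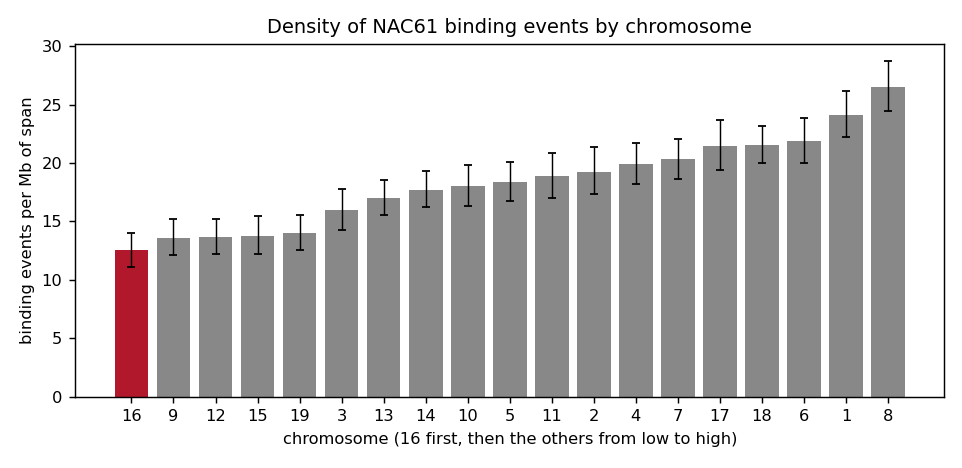
Density of binding events (events per Mb of the span from first to last summit) on each anchored chromosome, with chromosome 16 in red at the left and the others in grey in rising order; error bars are 95% exact Poisson intervals. Chromosome 16 stands at 12.5 events per Mb, and the bars of chromosomes 9, 12, 15 and 19 overlap its interval.

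Along the chromosome, binding was concentrated toward the far end. In 24 bins of 1 Mb counted from position 1, the number of events ranged between 1 and 34, with a median of 9.5 per bin, against a median of 16 per bin over the 444 bins of the other anchored chromosomes. Bins 1 to 13 held 99 events (33.8%) and bins 14 to 24 held 194 (66.2%). The densest were bin 23 (34 events), bin 20 (27), bin 14 (23) and bin 18 (22), which together held 106 events or 36.2%. Bins 11 and 12 had 1 event each, and bins 4, 8 and 22 had 4, 5 and 5. At most 5 events were found in 5 of the 24 bins (20.8%), against 44 of 444 elsewhere (9.91%), and at least 20 in 4 bins (16.7%), against 183 (41.2%). The last bin of each chromosome is only partly covered.

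When the span was divided into 3 sections of 7.80 Mb, the section nearest the start held 71 events or 9.11 per Mb (95% exact Poisson interval from 7.11 to 11.5), the middle section 65 or 8.34 per Mb (from 6.44 to 10.6), and the far section 157 or 20.1 per Mb (from 17.1 to 23.5). Among the 57 such sections of the 19 chromosomes, the middle section of chromosome 16 was the third sparsest and the one nearest the start the seventh sparsest, while the far section ranked 33 from the lowest. The far end of chromosome 16 thus stood near the middle of that order. The far section exceeded the one nearest the start 2.21-fold (95% exact interval from 1.66 to 2.97). An uneven spread was common, since the ratio between the densest and the sparsest section was 2.42 on chromosome 16, against a median of 2.52 on the other 18, and it was higher than on chromosome 16 on 11 of them. The variance of the bin counts was 5.31 times their mean, the eighth lowest value of the 19. For a like relative unevenness this measure rises with the mean count, and chromosome 16 had the lowest density. The order therefore does not compare unevenness alone.

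**Figure D2:**
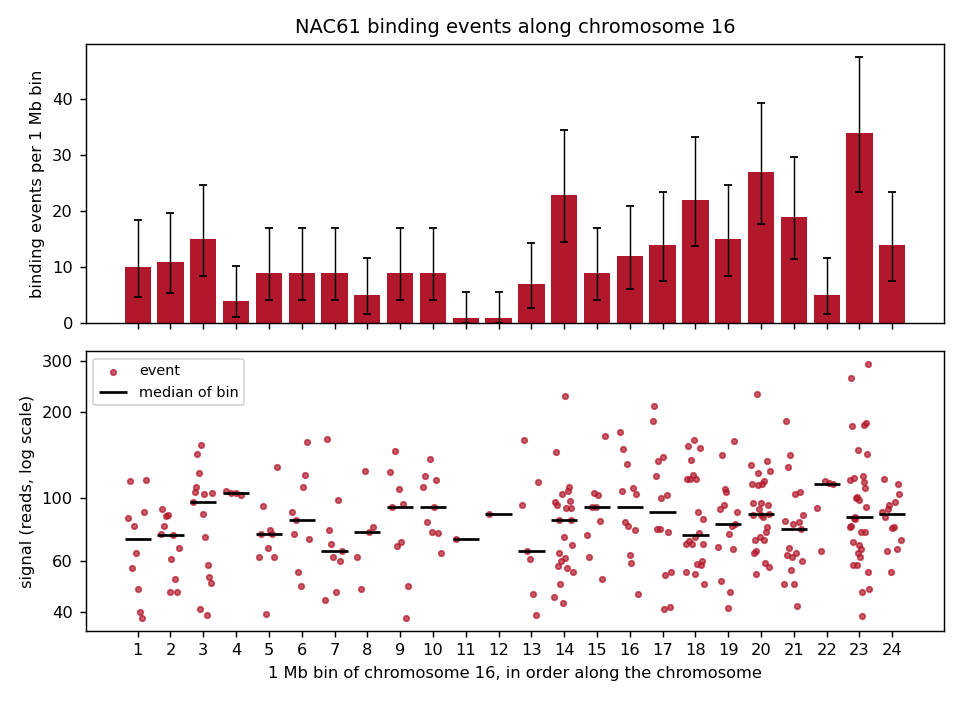
Binding events in each 1 Mb bin of chromosome 16 (upper panel, error bars are 95% exact Poisson intervals) and the signal of every event in reads on a log scale (lower panel, black lines are bin medians). Bins 11 and 12 hold 1 event each and bin 23 holds 34, and the bin medians lie between 65 and 112 reads without following the number of events.

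The signal of the chromosome 16 events was somewhat low. The lowest was 38 reads and the highest 293 reads. The median was 83 reads (95% order-statistic interval from 78 to 87.6), with quartiles of 64 and 107, against a median of 90 reads (from 89 to 91), with quartiles of 70 and 114, on the other anchored chromosomes. The median ratio was 0.92, and chromosomes 15, 9 and 3 had lower medians, down to 78 reads on chromosome 15. No chromosome 16 event reached 300 reads (0 of 293, which allows a share of up to 1.02%, 3 counts of the total), against 41 of 8096 elsewhere (0.506%). At least 160 reads, the level of the 600 strongest events, were found at 13 of the 293 events (4.44%, from 2.61% to 7.44%), beside 7.01% of the whole list and 545 of 8096 on the other anchored chromosomes (6.73%, from 6.21% to 7.30%). These intervals overlap. The section medians were 75 reads nearest the start (from 66.5 to 87), 88 in the middle (from 75.6 to 94) and 84.4 at the far end (from 78 to 91), with overlapping intervals. Across the 24 bins the median signal showed no relation to the number of events (Spearman's rho of -0.03, a description over bins that share the same libraries).

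Significance was close to that of the other chromosomes. The median was 6.93 (95% order-statistic interval from 6.47 to 7.81), against 7.13 (from 6.99 to 7.29) elsewhere. A significance of at least 5 was found for 195 of the 293 events (66.6%, 95% Wilson interval from 61.0% to 71.7%), beside 66.9% of the whole list, and at least 3 for 256 (87.4%), beside 87.2%. Both shares are close to those of the list. By section, 43 of 71 events reached 5 nearest the start (60.6%, from 48.9% to 71.1%), 51 of 65 in the middle (78.5%, from 67.0% to 86.7%) and 101 of 157 at the far end (64.3%, from 56.6% to 71.4%). Signal and significance were less closely related than on most chromosomes (Spearman's rho of 0.69 over 293 events, the second lowest of the 19, against 0.77 over the 8096 others), given as a description. The 23 events between 140 and 190 reads had significances from 6.51 to 45.5. The event at 18768716 reached 45.5 with 158 reads, while that at 22132819 had 14.7 with 178 reads. The control reads at these events were not analysed here.

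**Figure D3:**
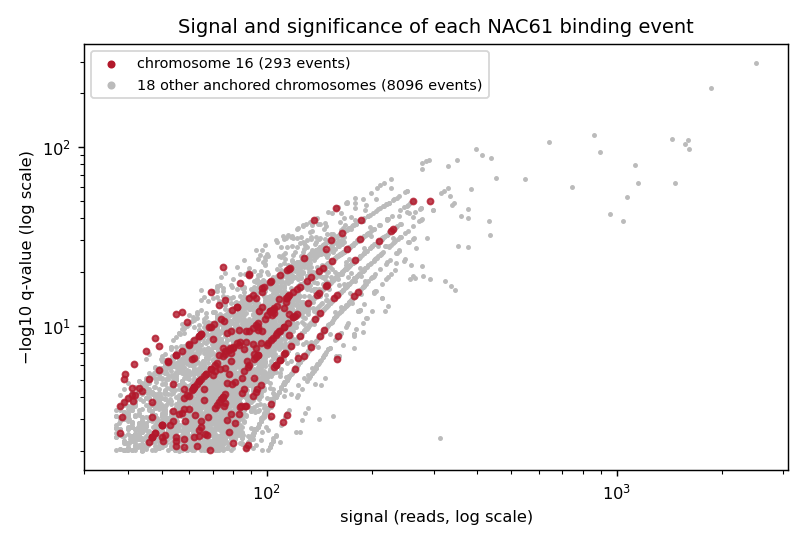
Signal in reads against significance (−log10 q-value) of each event, both on log scales, for chromosome 16 (red) and the 18 other anchored chromosomes (grey). The red points lie within the grey cloud and end at 293 reads, and events of like signal differ widely in significance.

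The events highest in signal or significance lay beyond 13 Mb, where most events of the chromosome lay. At least 160 reads were found at 1 of 71 events nearest the start, 3 of 65 in the middle section and 9 of 157 in the far section. The 10 events of highest signal and the 10 of highest significance shared 6. The 14 events in either set were all beyond 13 Mb, which held 66.2% of all 293 events. Of the 14, 12 lay in the far section, which held 53.6% of all events. The first in both orders was chr16:22916517-22916717 (12X.v2), with its summit at 22916616, 293 reads and a significance of 49.9, which is rank 83 in signal and rank 72 in significance out of 8558. It lies 1269 bp upstream of the gene listed as SAUR29 and carries the k-mer gTTGCGTGt shown above. The second, at 22123909, had 261 reads and a significance of 49.6 and lies in a run of 11 events within 95.6 kb, the closest 11 on the chromosome, from 22103866 to 22199505. The others of the 10 highest signals were 230 reads at 19385510, 226.6 reads at 13510156, 209 reads at 16089431 inside CYP704A2, 186 reads at 16042398, 185 reads at 20096074, 182 reads at 22855972, 179 reads at 22811371 and 178 reads at 22132819. By significance, 4 further events were among the first 10, at 18768716, 17350235, 14923340 and 17261292, with significances of 45.5, 39.0, 33.1 and 30. Of these, 17350235 had only 136 reads and was rank 31 on the chromosome by signal, and it belongs to the closest 4 events of the chromosome, which lie within 3.62 kb between 17348473 and 17352096. Of the 14 events, 3 have a listed gene here, beside 51 of all 293 events (17.4%).

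Long stretches without an event took up more of chromosome 16 than of the others pooled, as they also did on other sparse chromosomes. The median gap between neighbouring summits was 33.6 kb (n = 292, 95% order-statistic interval from 28.2 to 42.5 kb), against 26.2 kb (n = 8078, from 25.4 to 27.2 kb) elsewhere. Gaps past 10 kb were about as frequent, since 74.0% of the gaps on chromosome 16 and 72.9% of the others were at least 10 kb. At least 100 kb was reached by 57 of 292 gaps (19.5%, 95% Wilson interval from 15.4% to 24.5%), against 13.9% elsewhere (from 13.2% to 14.7%), and at least 200 kb by 28 (9.59%, from 6.72% to 13.5%), against 4.54% (from 4.11% to 5.02%). Gaps of at least 200 kb covered 51.2% of the chromosome 16 span and 30.9% of the span of the others. The 5 longest gaps were 1329 kb from 3187068 to 4515993, 981 kb from 11127678 to 12108362, 911 kb from 21192792 to 22103866, 835 kb from 9921072 to 10755787 and 582 kb from 14035366 to 14617348. A sixth, of 542 kb, lay between the events at 14923340 and 15465441, which are among the 15 most significant of the chromosome. These 6 gaps of at least 500 kb made up 22.1% of the span, the highest share of the 19 chromosomes, against 9.81% over the others pooled. Chromosomes 15, 12 and 19, which were among the sparsest, had between 16.9% and 18.3% of their spans in such gaps. In the median gap chromosome 16 was the fourth highest, below chromosomes 9, 12 and 19 with 34.7, 36.1 and 38.1 kb, and 4 chromosomes had a longer longest gap. Between 9921072 and 12108362, a stretch of 2.19 Mb, only 2 events were found, with 72 and 88 reads. Without the gaps of at least 500 kb, a choice made after the data were seen, chromosome 16 had 16.1 events per Mb and chromosome 9, with 15.7, was lowest.

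**Figure D4:**
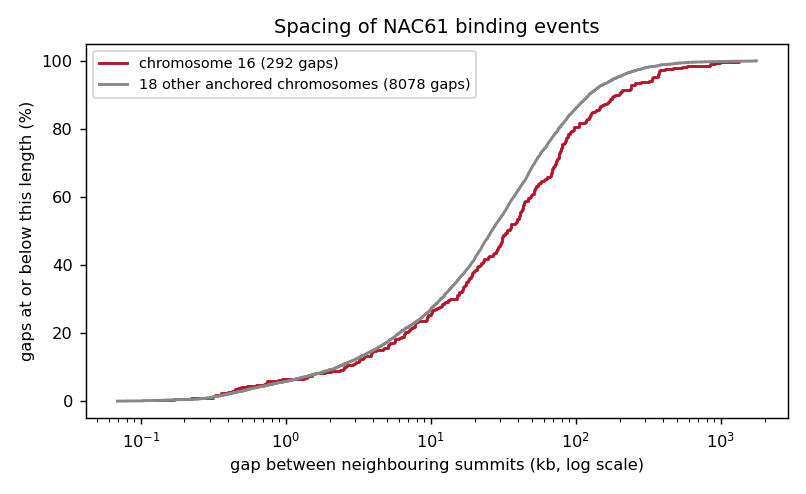
Cumulative share of the gaps between neighbouring summits, in percent, against gap length in kb on a log scale, for chromosome 16 (red) and the 18 other anchored chromosomes (grey). Both curves run together up to about 10 kb, and above it the red curve lies to the right, with 19.5% of the chromosome 16 gaps and 13.9% of the others at 100 kb or more.

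A few events lay in close pairs. Another event within 500 bp was found for 24 of the 293 events (8.19%, 95% Wilson interval from 5.57% to 11.9%), beside 5.89% of the whole list and 465 of 8096 on the other anchored chromosomes (5.74%, from 5.26% to 6.27%), so the intervals overlap. The share on chromosome 16 was the second highest of the 19, below 8.74% on chromosome 9, beside a median of 5.70% on the other 18. The 24 events form 12 pairs with 122 to 493 bp between summits. Of these pairs, 8 lay beyond the midpoint of the span, where most of the 293 events also lay. The stronger member had between 1.06 and 2.39 times the signal of the weaker one, and in 4 pairs both members had a significance of at least 5. The most unequal in significance was the pair at 22547337 and 22547558, with 147.4 and 68.6 reads and significances of 26.8 and 2.03. GEM divides reads between neighbours, and 22 of the 24 signals are not whole numbers, against 31 of the 269 other chromosome 16 events, so the values within a pair are not independent. The median signal was 78.3 reads in pairs and 83 reads outside them.

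The STS array was examined by position. STS genes named in the study's lists carry locus identifiers from VIT_16s0100g00750 to VIT_16s0100g01200. The copy of the table of bound genes used here ends before the part of the alphabet where STS annotations would stand. It therefore does not tell whether a given STS gene was assigned an event. The paper itself counts an STS gene with an identifier in this range among its candidate targets, which needed an event near the gene start. For each of the 6 groups of identifiers on the chromosome, the listed genes (41 in all) stood in ascending order of both identifier and position, so the array was bracketed by its listed neighbours, VIT_16s0100g00690 (an ankyrin repeat protein, 17674463 to 17682818) and VIT_16s0050g00220 (cofilin, an actin-severing protein, 18545638 to 18546152). The interval between them, chr16:17682819-18545637 (0.863 Mb), is therefore an estimate of where the array lies and may hold other genes.

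In this interval 12 events were found, or 13.9 per Mb (95% exact Poisson interval from 7.19 to 24.3), close to the 12.5 per Mb of the whole chromosome and below the 20.1 per Mb of its far section, to which the interval belongs, although the Poisson intervals overlap. The median signal was 79.7 reads (range 41.3 to 141), and 6 of the 12 events had a significance of at least 5 (50.0%, 95% Wilson interval from 25.4% to 74.6%), beside 66.9% of the list. The events were unevenly placed. The first 3, at 17692650, 17710959 and 17734151, lay within 41.5 kb at the left edge, with 69, 84.4 and 50 reads. The last 7 lay within 126 kb at the right edge, from 18419485 to 18545163. Among these were the strongest of the 12, at 18421518 with 141 reads and a significance of 15.3, and its neighbours at 18429298, 18457541 and 18487523 with 94, 107 and 105 reads. In the 685 kb between both groups only 2 events were found, 67.2 reads at 18068912 with a significance of 2.46 and 91 reads at 18247798 with 7.92, and the gap before the first of them was 335 kb long. The event at 18421518 was rank 27 by signal among the 293 events of the chromosome. The last event, at 18545163, is listed with cofilin, whose gene end it passes by 475 bp. The authors removed reads with a low mapping quality, which is what reads from near-identical gene copies receive. The loss of such reads within the array was not analysed here, and its part in these values was not tested.

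The 51 events with a listed gene belong to 41 genes, of which 10 have 2 events each. Their median signal was 79 reads, against 83.9 reads for the 242 events without a listed gene, so the listed part was not stronger. With distances taken from the summit to the gene start, 23 events lay inside the gene (45.1%, 95% Wilson interval from 32.3% to 58.6%), 11 within 3 kb upstream (21.6%, from 12.5% to 34.6%), 12 farther upstream (23.5%, from 14.0% to 36.8%) and 5 past the gene end (9.80%, from 4.26% to 21.0%). On the other anchored chromosomes these shares were 36.9%, 27.7%, 18.9% and 16.4% of 1806 events, each inside the matching chromosome 16 interval. Of the 23 events inside genes, 10 lay in the first 1000 bp, and the median distance from the gene start was 1329 bp. The 11 events upstream within 3 kb, all at different genes, lay between 60 and 1646 bp from the gene start. Their median signal was 70.1 reads (range 41.6 to 293), 4 of them exceeded the chromosome median of 83 reads, and 6 of the 11 had a significance of at least 5, beside 66.9% of the whole list.

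**Figure D5:**
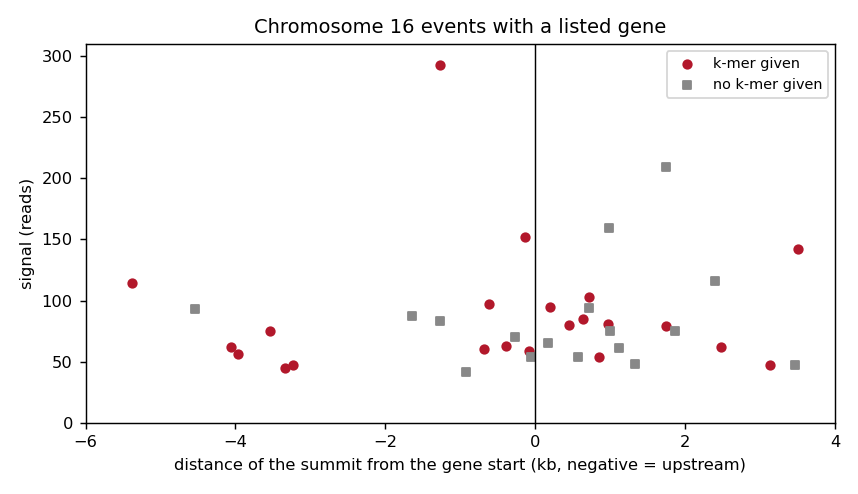
Signal in reads of the chromosome 16 events with a listed gene against the distance of the summit from the gene start in kb (negative is upstream), for events with a k-mer (red circles) and without (grey squares); 39 of the 51 events fall in the range shown. Most lie below 100 reads on both sides of the gene start, and the event upstream of SAUR29 is the highest at 293 reads.

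Genes of hormone pathways included the strongest event of the chromosome. SAUR29 (VIT_16s0098g01150, minus strand, 22914559 to 22915347), a member of the small auxin-up RNA family of early auxin-responsive genes, had the event of 293 reads 1269 bp upstream and another of 142 reads, with a significance of 11.8, 2718 bp past its end. A gene for 1-aminocyclopropane-1-carboxylate synthase (VIT_16s0022g02010, minus strand, 15813947 to 15818102), which makes the direct precursor of ethylene, was bound 393 bp upstream (63 reads, significance 4.72). This signal lies below the lower quartile of the chromosome, although the k-mer gaTTGCGTGt holds the complete motif. The gene for PYL8 (VIT_16s0050g02620), a receptor of abscisic acid (ABA), had an event 5375 bp upstream with 114 reads but a significance of only 3.18. At AIN1/XRN4 (VIT_16s0039g02640), a 5′-3′ exoribonuclease that acts in ethylene responses in Arabidopsis, the event of 104 reads lay 12254 bp upstream. Of these 4 genes, SAUR29 and the synthase had an event within 3 kb upstream.

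Among genes of transport, TAP3 (VIT_16s0100g00350, listed also as ABCB23, minus strand, 17248816 to 17261155), an ABC transporter, had the most significant event within 3 kb upstream after that of SAUR29 among the 51 listed events. No gene is listed here for 8 of the 10 most significant events of the chromosome, beside 242 of all 293. The upstream event of TAP3, chr16:17261193-17261393 with its summit 137 bp upstream, had 152 reads and a significance of 30, and a second event 2393 bp inside the gene had 116 reads and a value of 20.9. Both rank among the 20 most significant of the chromosome. The k-mer at the upstream event, tgcgtgt, is as long as the motif and overlaps it only in part. Aquaporin BETA-TIP (VIT_16s0039g00220), a water channel of the vacuolar membrane, had an event 633 bp inside the gene with 85 reads and a significance of 4.2. A subunit of the adaptor complex AP-1 (VIT_16s0050g00660), which sorts vesicle cargo, had 130 reads and a value of 17.8 for an event 1939 bp past the gene end.

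Genes of calcium signalling, defence and a receptor kinase were also listed. IQD21 (VIT_16s0098g01790), a calmodulin-binding protein, had an event 623 bp upstream (97 reads, significance 15.5) and another 1745 bp inside (79 reads, 9.34). Both k-mers, gcTTGCGTGt upstream and cTTGCGTG inside, hold the same motif word, CACGCAA on the reverse strand. Of the genes listed as disease resistance proteins, VIT_16s0050g00250 had 47 reads past the gene end and VIT_16s0050g01950 had 62 reads 4054 bp upstream, with significances of 2.38 and 4.55. A CLAVATA1-like receptor kinase (VIT_16s0013g01990) had 109 reads, but 28288 bp upstream. Neither disease resistance gene had an event within 3 kb upstream or a signal above the chromosome median.

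Enzyme genes were bound both inside the gene and upstream. Of the cytochrome P450 genes, CYP704A2 (VIT_16s0022g02140) had 209 reads and a significance of 29.9, 1746 bp inside, the fifth highest signal of the chromosome. CYP89A28, CYP87A3 and CYP715A1 had 79.9, 75.5 and 81 reads at 449, 1869 and 968 bp inside. A gene for caffeic acid O-methyltransferase (VIT_16s0098g00850), an enzyme of lignin synthesis, had 47 and 38.6 reads at 3130 and 9655 bp inside, both among the 25 weakest signals of the 293. An acid phosphatase gene (VIT_16s0013g01930, plus strand, 8730358 to 8739134) had events on both sides of its start, 70.1 reads 268 bp upstream and 94.9 reads 200 bp inside, one of the 12 pairs, with significances of 8.48 and 12.2. A carbohydrate kinase gene (VIT_16s0039g01580) had 87 and 47 reads at 1646 and 3230 bp upstream. Cellulose synthase CSLD5 (VIT_16s0022g01400), of the cell wall, had 83 reads 1267 bp upstream, and the carboxylesterase gene CXE20 (VIT_16s0022g02440) had 41.6 reads 922 bp upstream with a significance of 6.10, above that of several stronger events.

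Several of the listed genes act on RNA. Those listed as CCR4-NOT subunit 1, the scaffold of the complex that shortens mRNA tails, had 94 reads 714 bp inside (VIT_16s0022g00030) and 65 and 61 reads at 169 and 1117 bp inside (VIT_16s0022g00380). Subunit 1 of the cleavage and polyadenylation factor (VIT_16s0022g01860), which forms mRNA 3′ ends, had 82 and 131 reads more than 22 kb inside. The splicing factor RSP41 (VIT_16s0100g00450), the phloem protein gene ATPP2-A13 (VIT_16s0100g00520) and the ankyrin repeat gene (VIT_16s0100g00690) had 54, 58.5 and 60 reads at 60, 88 and 684 bp upstream. These 3 events were close to the gene start but had low significances of 2.92, 2.93 and 3.42. A gene listed as apocytochrome b (VIT_16s0022g00160), a protein that plants encode in their mitochondrial genome, had 159 reads 978 bp inside and a significance of only 6.51, the lowest of the 23 events between 140 and 190 reads.

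The listed events not named so far had between 43 and 146 reads, at genes of varied function. Inside their genes lay 146 reads at a ceramide kinase gene (VIT_16s0013g01750), 119 reads at an alpha-L-fucosidase gene (VIT_16s0022g02170) and 103 reads at the gene of dipeptidyl peptidase 8 (VIT_16s0098g01880). An aldo/keto reductase gene (VIT_16s0013g02110) had 137 reads, but 21128 bp past its end. Events more than 3 kb upstream included 75 reads at a caspase gene (VIT_16s0013g00230), 45 reads at the gene of Golgi complex subunit 7 (VIT_16s0022g00490), 43 reads at that of ABC transporter E member 1 (VIT_16s0022g00630) and 56 reads at an AAA-type ATPase gene (VIT_16s0050g01850). Of the events named in these sentences, those at the caspase, Golgi complex, ATPase and dipeptidyl peptidase genes carry the k-mers TGACGTGt, aTGGCGTG, aTTGCGTGtaa and attgcgta. For the 242 events without a listed gene, neither the gene nor the k-mer was analysed here.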

How the data were processed

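Per the submitters' processing notes, the authors trimmed the reads with fastp 0.21.0 and aligned them with bowtie2 (12X.v2 build of PN40024). They then dropped reads of low mapping quality and called events with GEM 3.4 in its replicate mode on HALO-NAC61 against GST-HALO, limited to nuclear chromosomes. They deposited 1 list. The deposited signal is not defined in the study's methods. It was taken as the number of reads GEM assigned to each event over both replicates, from the layout of GEM's output and because most values are whole numbers, and the −log10 q-value deposited by the authors comes from the same caller. The deposited score was not used. No count per library was analysed here. The control was sequenced less deeply than HALO-NAC61, which limits how precisely the q-value is known.

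The summit was the interval's start plus the offset that the list gives. Events were counted by chromosome, by 1 Mb bin and by q-value. Gaps were taken between neighbouring summits, and the unanchored sequence was left out of the comparisons. The members and lists were chosen with earlier results of these data known, and events are not replicates, so no test was made. Counts have exact Poisson intervals, shares Wilson intervals and medians order-statistic intervals, all at 95%, covering counting error only. The functions were checked on simulated data. Genes and k-mers came from the 1879 listed rows of the study's table of bound genes, each matched to an event by its summit. None of its other columns was used. The genes named were those with an event between 3 kb before and 100 bp after the gene start, and those with an event inside the gene and a textbook role. The events named were the 10 highest by signal and by q-value, the 5 longest gaps and all events of the STS interval. Events, stretches and genes named beside these were chosen after their values were seen. The assembly sequence was not used here, and the reference gene table is of another build and was not used. Alternatives covered the minimum q-value, the merging of close events, the length, the bins, the distance for neighbours and the point from which distances are taken. Computations ran in Python 3.11.15 (pandas 2.3.3, numpy 2.4.6, scipy 1.17.1; figures in matplotlib 3.10.9).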

Additional observations from a re-analysis of the deposited data

How the results depend on the processing

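The number of events and the variance over the mean were taken as unmoved within 1.5-fold, the other results within their 95% interval. By these rules, 20 of 31 alternatives over 10 results left the value unmoved and 11 moved it. The direction of most of these 11 moves was fixed by the setting. A higher minimum can only lower a count, density or share, and a wider distance can only raise the share with a neighbour. A turn of direction was defined only for the median signal ratio and the ratio of the far section to the one nearest the start. None occurred there. The order of densities did change. Chromosome 16 stayed lowest at a minimum −log10 q-value of 3, but chromosome 15 was lowest at 5 and chromosome 9 without the gaps of at least 500 kb. A minimum −log10 q-value of 5 lowered the number of events to 195, the density to 8.34 events per Mb and the density in the STS interval to 6.95 events per Mb, and widened the median gap to 52.0 kb. A minimum of 3 gave 10.9 events per Mb. Without the gaps of at least 500 kb, an alternative chosen after seeing the data, the density was 16.1 events per Mb. The share of events with a neighbour was 1.37% within 200 bp and 12.6% within 1000 bp. The share past the minimum q-value was 87.4% at 3 and 30.7% at 10. With bins of 500 kb the variance over the mean was 3.45. The median signal relative to the other chromosomes lay between 0.92 and 0.93 under its 4 alternatives. No paired analysis was possible because the list pools both replicates, and for the same reason no replicate could be left out. Depth limits the weakest events, which rest on 38 reads, and the 12 events of the STS interval, whose density is uncertain by a wide Poisson interval.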
